A study of Rattus norvegicus with 24 samples.

Results

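Renal calcium handling and the vitamin D axis were followed across the kidneys of 3 rat strains through 10 genes: Atp2b1, Calb1, Trpv5, Slc8a1, Casr, Vdr, Cyp24a1, Cyp27b1, Kl and Pvalb. The members were all probe sets of the Affymetrix arrays RAE230A and RAE230B whose platform annotation gave 1 of these symbols and no other gene. This gave 14 of 31142 probe sets, for 9 of the 10 genes and of 13810 genes that the arrays name in this way. Cyp24a1, the hydroxylase that breaks down active vitamin D, was matched to no probe set in the annotation used and was not analysed here. Left kidneys came from male rats of the congenic substrains ET3x2 and ET3x1 and of the inbred Dahl salt-sensitive strain SS/jr, called S. From general knowledge, such substrains carry a piece of a salt-resistant strain's chromosome on the S background, here near the endothelin 3 gene on chromosome 3. The S background is therefore shared by all 3 strains. All rats ate 0.4% NaCl until they were 39 to 41 days old, then 2% NaCl for 28 days, so that no low-salt group was compared, and kidneys were those of rats 67 to 69 days old. Each array read a pool with equal RNA from each rat, 3 rats in ET3x2 (pools I, J, K and L) and in ET3x1 (pools E, F, G and H) and 2 rats in S (pools A, B, C and D). A pool is thus an average of rats, and n is 4 pools in each strain. Whole kidney RNA was measured, in which fewer cells of a type and less RNA per cell cannot be told apart.

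The kidney reclaims filtered calcium along the whole tubule and sets the final amount in the distal convoluted and connecting tubule, where calcium enters the cell through the channel Trpv5, is carried through the cytosol by calbindin (Calb1) and leaves at the blood side through the calcium pump Atp2b1 and the sodium-calcium exchanger Slc8a1. The proximal tubule is the main site of Cyp27b1, which makes the active vitamin D hormone. That hormone acts through the receptor Vdr, and the calcium-sensing receptor Casr and the FGF23 co-receptor klotho (Kl) adjust this system to blood calcium and phosphate. By RefSeq's annotation of the assembly GRCr8, Atp2b1, Vdr, Cyp27b1 and Pvalb lie on chromosome 7, Calb1 on 5, Trpv5 on 4, Slc8a1 on 6, Casr on 11 and Kl on 12. Among the 10 genes, Cyp24a1 alone lies on chromosome 3.

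Of the calcium pump Atp2b1, 1 of 4 probe sets passed the threshold used below, and only between the congenic strains. RefSeq promoters of 3 genes are shown, those of this pump, of the entry channel and of the enzyme that makes the hormone. Each runs from 250 bases before to 50 bases after the annotated start, 5′ to 3′ on the gene's strand, and capitals mark 6-base repeat units of the vitamin D response element. A unit was AGGTCA or AGGTGA or AGTTCA or AGTTGA or GGGTCA or GGGTGA or GGTTCA or GGTTGA, on either strand. A match on the opposite strand is printed as its reverse complement.
Atp2b1, GRCr8, chr7:35622211-35622510, plus strand: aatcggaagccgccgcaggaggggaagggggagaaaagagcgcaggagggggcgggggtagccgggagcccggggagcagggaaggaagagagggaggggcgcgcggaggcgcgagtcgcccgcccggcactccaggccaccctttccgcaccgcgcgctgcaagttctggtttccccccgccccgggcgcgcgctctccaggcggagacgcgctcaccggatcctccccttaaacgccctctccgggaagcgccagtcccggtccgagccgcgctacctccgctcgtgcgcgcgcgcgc
Trpv5, GRCr8, chr4:71529333-71529632, minus strand: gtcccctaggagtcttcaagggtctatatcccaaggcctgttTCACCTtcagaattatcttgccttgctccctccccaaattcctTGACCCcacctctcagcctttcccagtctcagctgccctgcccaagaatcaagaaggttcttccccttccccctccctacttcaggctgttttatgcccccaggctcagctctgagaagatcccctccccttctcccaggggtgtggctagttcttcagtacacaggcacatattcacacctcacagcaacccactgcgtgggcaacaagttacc
Cyp27b1, GRCr8, chr7:64756376-64756675, plus strand: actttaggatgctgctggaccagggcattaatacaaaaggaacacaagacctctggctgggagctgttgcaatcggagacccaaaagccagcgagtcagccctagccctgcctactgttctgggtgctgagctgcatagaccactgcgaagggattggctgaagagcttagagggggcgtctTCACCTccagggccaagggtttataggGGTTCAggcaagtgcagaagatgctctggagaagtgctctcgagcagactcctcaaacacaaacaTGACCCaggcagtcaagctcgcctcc
The Atp2b1 window held 0 units, the Trpv5 window 2 (AGGTGA and GGGTCA, both on the opposite strand) and the Cyp27b1 window 3 (AGGTGA and GGGTCA on the opposite strand and GGTTCA on the gene's own). Of all 33469 promoters of the same length, 66.7% held at least 1 unit and 13.0% held 3 or more. The full element, 2 units in the same orientation with 3 bases between them, was in 0.35% of promoters and in none of the 8 members' promoters that the table holds. The promoters of Calb1 and Cyp24a1 were not among these 8 and were not searched. The windows of Vdr held 2 units, those of Casr and Pvalb 1 each, and those of Slc8a1 and Kl 0. Letters in these windows show neither binding nor its absence. The Atp2b1 window was made of G and C to 74.3%, against 54.3% in Trpv5 and 55.0% in Cyp27b1.

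Signals are the deposited values, taken as log2, and a level below is always a log2 probe set signal. Each array's probe sets were tested together when their mean over the 12 pools reached the 30th percentile of the array, which was 7.52 on RAE230A and 6.85 on RAE230B. Of the 14 member probe sets, 10 passed this filter, for Atp2b1 (4 probe sets), Slc8a1 (2), Calb1, Trpv5, Casr and Cyp27b1. The probe sets of Vdr, Kl and Pvalb and a second one of Trpv5 did not, and are described further on. The 30th percentile is set over all 12 pools, without regard to strain. RNA completeness, read as the actin 5′ minus 3′ control signal on RAE230A, was highest in pools J, A and B (−1.14, −1.27 and −1.27) and lay between −2.10 and −1.66 in the other 9. The kidney markers uromodulin (Umod), the sodium-phosphate transporter Slc34a1 and the sodium-chloride cotransporter Slc12a3 all lay above the filter. All 4 measured skeletal muscle markers, Acta1, Myh4, Ckm and Tnnt3, lay under it. Of the adrenal gland markers, Cyp11a1 (mean 8.23) and Hsd3b1 (8.03) lay above it and Cyp11b1 and Star under it. The kidney markers Wnk4 and Nphs1 also lay under it, so the filter alone did not separate kidney from other tissue.

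Atp2b1, the plasma membrane calcium pump, was the only member to differ between strains past the threshold, and it did so between the congenic strains. Its probe set 1370050_at read 10.39, 10.18, 10.03 and 10.43 in ET3x2 pools I, J, K and L, against 10.86, 10.79, 11.00 and 10.53 in ET3x1 pools E, F, G and H. In S pools A, B, C and D it read 10.62, 10.42, 10.86 and 10.64. Every ET3x2 pool lay below every ET3x1 pool, with L and H closest to each other, while S pool B lay just under ET3x2 pool L and the other S pools within the ET3x1 range. The difference was −0.54 in ET3x2 against ET3x1 (log2, SE 0.12, 95% interval −0.80 to −0.28, 0.689-fold, limma adjusted p = 0.0497, n = 4 pools each). It ranked 116th of 11106 probe sets tested on its array, where 116 were called, so that it was the last call made there. Over both arrays 1.48% of 21799 probe sets were called in this comparison, with 1.39% of all lower in ET3x2, against 1 of the 10 member probe sets. This split of 21 higher and 302 lower calls became 714 higher and 944 lower with array weights and 180 higher and 308 lower without ET3x1 pool F.

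The other 3 Atp2b1 probe sets, all on RAE230B, were also lower in mean in ET3x2 than in ET3x1, with smaller differences that missed the threshold. Probe set 1386426_at read 9.07, 9.09, 8.93 and 9.06 in the ET3x2 pools, against 9.42, 9.48, 9.29 and 9.39 in the ET3x1 pools and 9.31, 9.34, 9.18 and 8.92 in the S pools. Again no ET3x2 pool reached an ET3x1 pool, and S spread over both, with pool D at the bottom. The difference of −0.35 (SE 0.086, 95% interval −0.54 to −0.17) had an adjusted p of 0.0593. Probe set 1397224_at read 7.98, 7.76, 8.01 and 7.98 in ET3x2, against 8.02, 8.04, 8.17 and 8.27 in ET3x1 and 7.86, 7.86, 7.97 and 7.80 in S, a difference of −0.19 between the congenic strains (SE 0.074, adjusted p = 0.344). These groups did not overlap either, though ET3x2 pool K and ET3x1 pool E lay side by side. Probe set 1394714_at read 8.31, 8.46, 8.46 and 8.62 in ET3x2, against 8.54, 8.40, 8.76 and 8.73 in ET3x1 and 8.71, 8.68, 8.68 and 8.74 in S. Its congenic groups overlapped (−0.14, SE 0.083, adjusted p = 0.547).

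**Figure D1:**
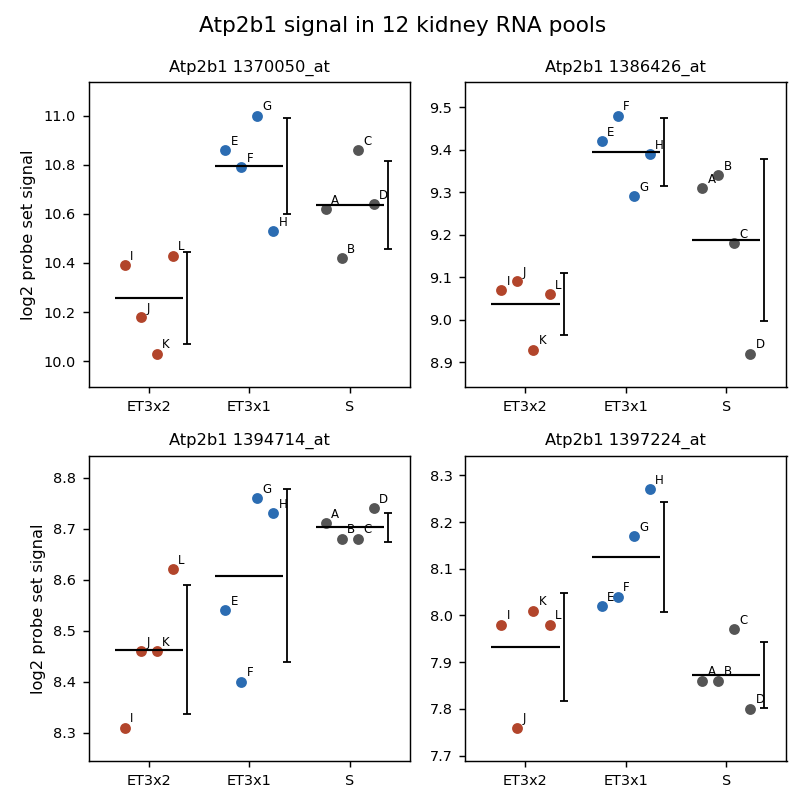
Log2 signal of the 4 Atp2b1 probe sets (vertical axes, scaled per panel) in each pool of ET3x2, ET3x1 and S (horizontal axis); points are pools with their letters, lines are strain means and bars are SD (n = 4). In 1370050_at, 1386426_at and 1397224_at all ET3x2 pools lie below all ET3x1 pools, while S takes a different place in each panel.

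Against S, the 4 Atp2b1 probe sets did not give 1 direction. In ET3x2 against S the differences were −0.38 for 1370050_at (SE 0.12, adjusted p = 0.263), −0.24 for 1394714_at (SE 0.083, adjusted p = 0.317), −0.15 for 1386426_at (adjusted p = 0.588) and 0.06 for 1397224_at (adjusted p = 0.813). In ET3x1 against S they were 0.25 for 1397224_at (SE 0.074, adjusted p = 0.198), 0.20 for 1386426_at (adjusted p = 0.427), 0.16 for 1370050_at (adjusted p = 0.593) and −0.10 for 1394714_at (adjusted p = 0.733). Pools did not overlap in 1394714_at for ET3x2 against S (lower, against 2.09% of all tested probe sets) and in 1397224_at for ET3x1 against S (higher, against 4.41%). No difference passed, and both comparisons share the S pools. Averaged over its 4 probe sets, Atp2b1 read 8.92 ± 0.075 in ET3x2, 9.23 ± 0.053 in ET3x1 and 9.10 ± 0.063 in S (SD, n = 4 pools each), so that the congenic difference was −0.31, smaller than that of 1370050_at alone. Which exons or transcript ends the 4 probe sets read was not analysed here.

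The Atp2b1 call rested on single pools. The adjusted p of 1370050_at was above 0.05 when pool A (0.0675), E (0.157), F (0.0517), G (0.195), I (0.0923), J (0.114) or K (0.205) was left out, although the difference stayed between −0.63 and −0.46. Leaving out A, B and J together gave 0.0831 (−0.51), and the covariate fit with the actin signal gave 0.0507 (−0.46). Probe set 1386426_at, which had just missed, passed with that covariate (−0.45, adjusted p = 0.00148) and when A, B and J were left out (−0.37, adjusted p = 0.0363). In the ET3x2 pools the actin 5′ minus 3′ signal ran from −1.83 to −1.14, in the ET3x1 pools from −2.02 to −1.66 and in the S pools from −2.10 to −1.27. Its part in the difference was tested only by these fits.

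**Figure D2:**
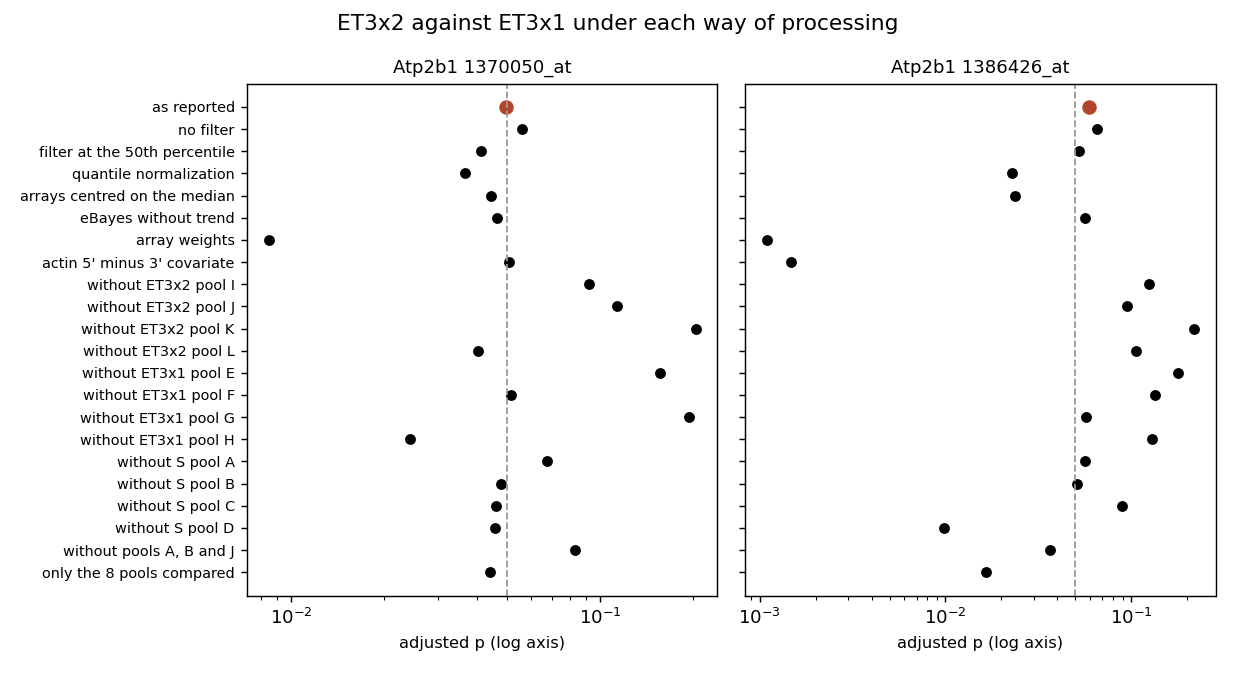
Adjusted p of ET3x2 against ET3x1 (horizontal log axis) for 2 Atp2b1 probe sets under each way of processing (rows); the red point is the reported fit and the dashed line is 0.05. For 1370050_at the points run from 0.00846 with array weights to 0.205 without pool K, and 11 of the 21 alternatives lie under 0.05.

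Markers of the cells that could carry Atp2b1 were read beside it. The 67 marker genes covered several cell and tissue types, distal convoluted and connecting tubule included. Of these, 49 were tested and none was called in ET3x2 against ET3x1, with differences from −0.29 to 0.32 and a median of 0.05. The mean signal of the 5 tested distal convoluted tubule markers was 10.62 to 10.81 in the ET3x2 pools, 10.59 to 10.73 in the ET3x1 pools and 10.57 to 10.73 in the S pools, and Slc12a3, which defines that segment, averaged 11.55 in ET3x2, 11.29 in ET3x1 and 11.26 in S. The 8 connecting tubule and principal cell markers had means of 10.58 to 10.61 in the ET3x2 pools, 10.38 to 10.63 in the ET3x1 pools and 10.49 to 10.56 in the S pools. In the 5 intercalated cell markers they were 9.28 to 9.44 in ET3x2, 9.39 to 9.60 in ET3x1 and 9.33 to 9.41 in S. Of these 5, the proton pump gene Atp6v1b1 was called higher in ET3x1 than in S (0.33, SE 0.069, adjusted p = 0.0483). In ET3x2 against ET3x1 it differed by −0.24 (SE 0.069, unadjusted p = 0.00369, limma adjusted p = 0.121). The 5 intercalated differences in that comparison had a median of −0.22 and ran from −0.24 to 0.08. The 6 thick ascending limb markers had means of 10.81 to 10.98 in ET3x2, 10.89 to 11.13 in ET3x1 and 10.69 to 11.06 in S. In ET3x2 against ET3x1, 4 of these 6 differences were negative, beside 3 of 5 distal convoluted and 3 of 5 intercalated ones. Of the connecting tubule and principal cell differences 7 of 8 were positive, and of the proximal tubule ones 8 of 8. Over all tested probe sets 13244 were positive and 8555 negative. The lowest of all 49 markers in ET3x2 against ET3x1 was Slc12a1, the sodium-potassium-chloride cotransporter that defines the thick ascending limb. It averaged 10.61 ± 0.11 in ET3x2, 10.91 ± 0.13 in ET3x1 and 11.00 ± 0.21 in S (SD, n = 4 pools each). Its difference was −0.29 in ET3x2 against ET3x1 (SE 0.11, unadjusted p = 0.0145, limma adjusted p = 0.207) and −0.39 in ET3x2 against S (SE 0.11, unadjusted p = 0.00236, limma adjusted p = 0.192). Slc12a3 went the other way, at 0.26 in ET3x2 against ET3x1 (SE 0.10, unadjusted p = 0.0256, limma adjusted p = 0.257). In ET3x2 against S it differed by 0.28 (SE 0.10, unadjusted p = 0.0161, limma adjusted p = 0.334). Of all 49 markers, 0 were called in either comparison of ET3x2. An unadjusted p under 0.05 was found for 11 in ET3x2 against ET3x1 (13.1% of all tested probe sets), 8 in ET3x2 against S (10.9%) and 10 in ET3x1 against S (11.8%). Whether cell make-up had a part in the Atp2b1 difference was not tested.

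In the rest of the distal calcium path, Calb1, Trpv5 and the brighter Slc8a1 probe set had their lowest mean in S, and none of their differences was called. Calb1, the cytosolic calcium buffer, read 12.64, 12.51, 12.60 and 12.59 in the ET3x2 pools, against 12.66, 12.78, 12.50 and 12.48 in the ET3x1 pools and 12.18, 12.34, 12.50 and 12.60 in the S pools. The low values were those of S pools A and B, while C and D lay among the congenic pools. The difference was 0.18 in ET3x2 against S (SE 0.095, 95% interval −0.02 to 0.38, adjusted p = 0.490) and 0.20 in ET3x1 against S (SE 0.095, 95% interval −0.01 to 0.40, adjusted p = 0.391). Between the congenic strains it was −0.02, with an interval from −0.22 to 0.19. When A, B and J were left out, ET3x2 against S was 0.06 and ET3x1 against S 0.05. The actin 5′ minus 3′ signal on RAE230A was −1.27, −1.27, −1.81 and −2.10 in S pools A, B, C and D. In ET3x2 it was highest in pool J (−1.14), which read 12.51 for Calb1, the lowest of the ET3x2 pools and above A and B. With the actin covariate ET3x2 against S was 0.18 (limma adjusted p = 0.285) and ET3x1 against S 0.14 (limma adjusted p = 0.555). The part of RNA completeness in these differences was tested only by these fits.

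Trpv5, the apical calcium channel, had 1 probe set above the filter, 1398279_at, which read 8.69, 8.78, 8.67 and 8.78 in ET3x2, 8.60, 8.67, 9.06 and 8.92 in ET3x1 and 8.46, 8.50, 8.54 and 8.82 in S. The 3 lowest pools were S pools A, B and C, but S pool D was above all ET3x2 pools. Against S the difference was 0.15 for ET3x2 (SE 0.11, adjusted p = 0.610) and 0.23 for ET3x1 (SE 0.11, unadjusted p = 0.0421, adjusted p = 0.360), and between the congenic strains it was −0.08 (95% interval −0.31 to 0.14). Leaving out A, B and J gave 0.04 for ET3x2 and 0.13 for ET3x1. The related intestinal-type channel Trpv6 averaged 10.02 in ET3x2, 9.96 in ET3x1 and 9.95 in S, with no call.

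Slc8a1, the sodium-calcium exchanger of the basolateral side, had a pair of probe sets. Probe set 1372449_at read 10.08, 10.01, 10 and 10.15 in ET3x2, 10.28, 10.32, 10.20 and 9.89 in ET3x1 and 10, 9.98, 9.82 and 9.85 in S. In ET3x1 pools E, F and G lay above every other pool, while H lay within the S range. The difference was 0.15 in ET3x2 against S (SE 0.095, adjusted p = 0.589) and 0.26 in ET3x1 against S (SE 0.095, 95% interval 0.06 to 0.46, unadjusted p = 0.0156, adjusted p = 0.276), and −0.11 in ET3x2 against ET3x1 (adjusted p = 0.604). Probe set 1370588_a_at was dim, with all 12 pools between 7.49 and 7.63, at the edge of the filter, and its differences in the 3 comparisons were between −0.02 and 0.05.

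**Figure D3:**
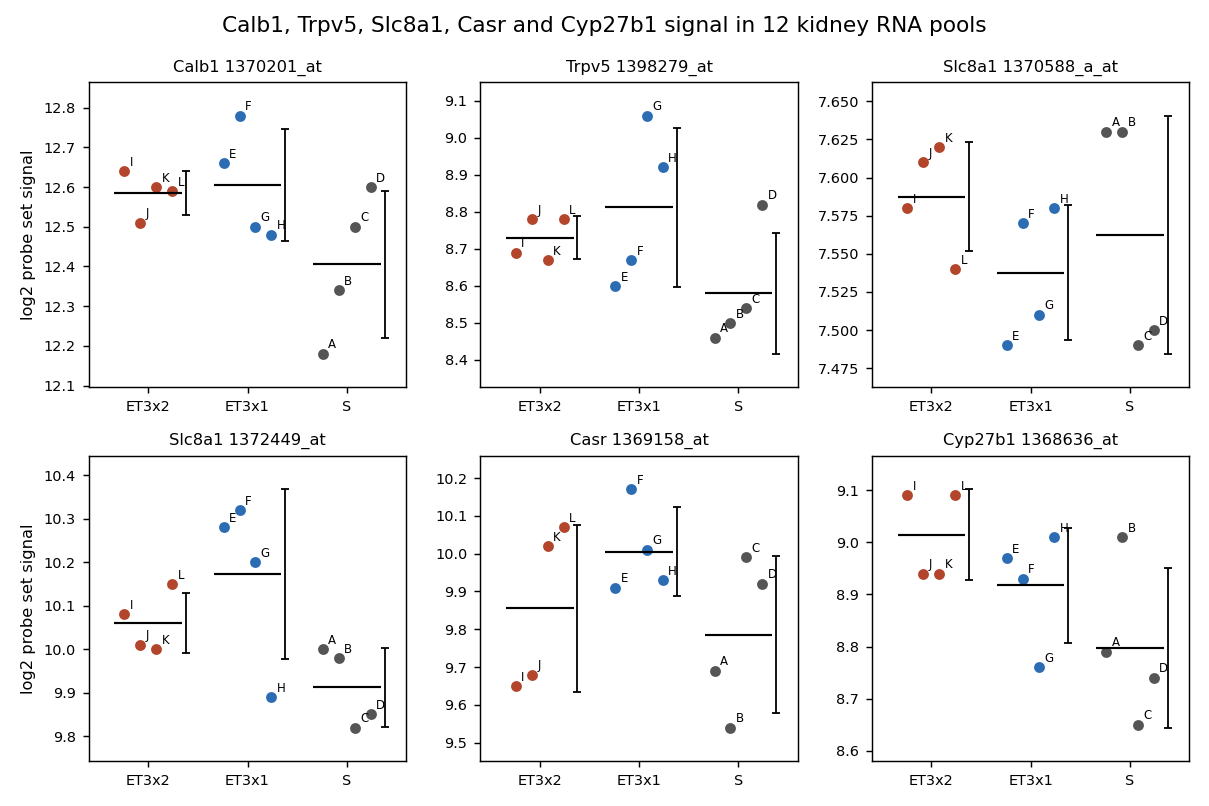
Log2 signal (vertical axes, scaled per panel) of the 6 tested probe sets of Calb1, Trpv5, Slc8a1, Casr and Cyp27b1 in each pool of ET3x2, ET3x1 and S (horizontal axis); points are pools with their letters, lines are strain means and bars are SD (n = 4). Congenic and S pools overlap in every panel, and S pools A and B are the lowest for Calb1 and Trpv5.

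Casr, the receptor through which the thick limb senses calcium, read 9.65, 9.68, 10.02 and 10.07 in the ET3x2 pools, 9.91, 10.17, 10.01 and 9.93 in the ET3x1 pools and 9.69, 9.54, 9.99 and 9.92 in the S pools. ET3x2 and S each split into a low and a high pair, and the 4 low pools were I, J, A and B, 3 of which had the high actin signal. The difference was 0.07 in ET3x2 against S (SE 0.12, 95% interval −0.19 to 0.33, adjusted p = 0.868), 0.22 in ET3x1 against S (SE 0.12, adjusted p = 0.445) and −0.15 in ET3x2 against ET3x1 (adjusted p = 0.585). Leaving out A, B and J gave −0.04 for ET3x2 against S, the opposite sign, and 0.05 for ET3x1 against S.

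Cyp27b1, the enzyme that makes active vitamin D, read 9.09, 8.94, 8.94 and 9.09 in ET3x2, 8.97, 8.93, 8.76 and 9.01 in ET3x1 and 8.79, 9.01, 8.65 and 8.74 in S. Every ET3x2 pool lay above S pools A, C and D, and S pool B lay among them. The difference was 0.22 in ET3x2 against S (SE 0.087, 95% interval 0.03 to 0.40, unadjusted p = 0.0250, adjusted p = 0.367). It was 0.12 in ET3x1 against S (adjusted p = 0.571) and 0.10 in ET3x2 against ET3x1 (adjusted p = 0.626). Unlike those of Calb1 and Trpv5, the ET3x2 difference from S was larger without pools A, B and J, at 0.34 (adjusted p = 0.353). The 8 proximal tubule markers beside it had means of 12.86 to 12.97 in the ET3x2 pools, 12.73 to 12.93 in the ET3x1 pools and 12.75 to 12.91 in the S pools, with 0 called.

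**Figure D4:**
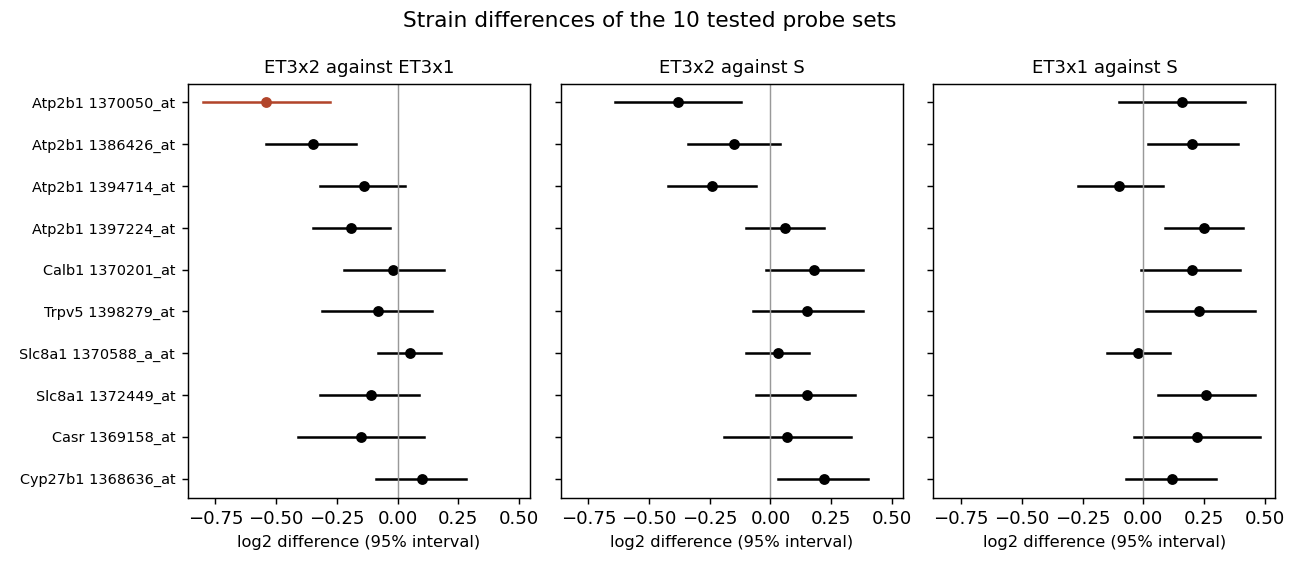
Log2 difference (horizontal axis, points) with its 95% interval (lines) for the 10 tested probe sets (rows) in the 3 comparisons (panels); the zero line is grey and the single called probe set is red. The red interval of Atp2b1 1370050_at in ET3x2 against ET3x1 runs from −0.80 to −0.28.

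Counted over the 10 tested member probe sets, 0 were called in ET3x2 against S, where 0.344% of all tested probe sets were, and 0 in ET3x1 against S, where 0.44% were. At an unadjusted p under 0.05 there were 3 in ET3x2 against S (1 higher and 2 lower, against 10.9% of all, 6.89% higher and 3.98% lower), 4 in ET3x1 against S (all higher, against 11.8%, 7.44% higher) and 3 in ET3x2 against ET3x1 (all lower, all of Atp2b1, against 13.1%, 6.39% lower). Pools of the congenic strains did not overlap in the same 3 Atp2b1 probe sets, where ET3x2 was lower, against 4.18% of all probe sets. The median difference of the 10 was 0.07 in ET3x2 against S, 0.20 in ET3x1 against S and −0.13 in ET3x2 against ET3x1, while over all tested probe sets it was 0.02 in ET3x2 against S, 0.00 in ET3x1 against S and 0.03 in ET3x2 against ET3x1. As 4 of the 10 read Atp2b1, these counts are not counts of genes. A single test of any difference among the 3 strains called 0 of the 10, where 1.39% of all probe sets were called, and gave Atp2b1 1370050_at an adjusted p of 0.0948.

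The 4 probe sets under the filter read low in all strains, so that their differences depend on an unknown background and no fold is given. Vdr, the vitamin D receptor, read 6.95, 7.19, 6.83 and 6.92 in ET3x2, 6.82, 6.89, 6.76 and 6.77 in ET3x1 and 7.02, 7.05, 6.89 and 7.05 in S. ET3x1 pools E, G and H lay below every S pool, and F overlapped S at pool C. Fitted without a filter, ET3x1 against S differed by −0.19 (SE 0.074, adjusted p = 0.334) and ET3x2 against S by −0.03 (adjusted p = 0.934), while ET3x2 against ET3x1 was 0.16 (SE 0.074, adjusted p = 0.370). Kl, the klotho gene, read 7.08 to 7.21 in ET3x2, 6.84 to 7.18 in ET3x1 and 6.88 to 7.11 in S, with adjusted p between 0.551 and 0.982 in the 3 comparisons. Pvalb, the calcium-binding parvalbumin of the early distal convoluted tubule, read 6.61 to 6.76 in ET3x2, 6.46 to 6.66 in ET3x1 and 6.53 to 6.75 in S, with adjusted p between 0.356 and 0.851. Parvalbumin is also a muscle protein, and the 4 skeletal muscle markers were, like it, under the filter.

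The second Trpv5 probe set, 1370644_at, read 6.18, 6.03, 6.25 and 6.11 in ET3x2, 6.28, 6.29, 6.21 and 6.26 in ET3x1 and 6.15, 6.10, 5.92 and 5.74 in S. All ET3x1 pools lay above all S pools, as they did in 4.41% of the probe sets above the filter, and ET3x2 overlapped S. Fitted without a filter the difference was 0.16 in ET3x2 against S (adjusted p = 0.518) and 0.28 in ET3x1 against S (SE 0.078, unadjusted p = 0.00255, adjusted p = 0.195). Both Trpv5 probe sets were highest in mean in ET3x1 and lowest in S, and neither passed the threshold. Their pools did not keep the same order. S pool D was the highest S pool in 1398279_at (8.82) and the lowest in 1370644_at (5.74). Kidney is known for high Kl and, in its early distal tubule, for Pvalb, both of which were dim here.

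**Figure D5:**
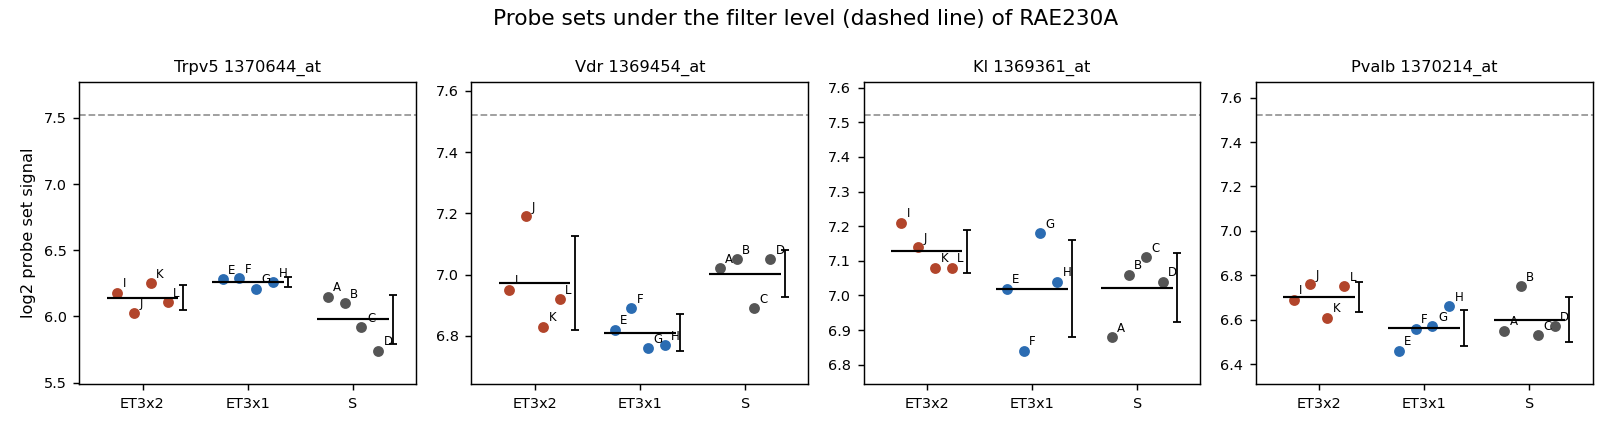
Log2 signal (vertical axes, scaled per panel) of the 4 probe sets under the filter in each pool of ET3x2, ET3x1 and S (horizontal axis); points are pools with their letters, lines are strain means, bars are SD (n = 4) and the dashed line is the filter level of RAE230A, 7.52. All readings lie under the line.

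Other genes of the pathway, taken from lists of 78 genes, had 72 with a probe set and 62 tested. In ET3x2 against ET3x1, 1 was called lower and 0 higher, beside 1.48% of all tested probe sets called. Of the 62 differences 43 were positive and 19 negative, beside 13244 positive and 8555 negative over all probe sets. In ET3x2 against S and in ET3x1 against S, 0 of the 62 were called. An unadjusted p under 0.05 was found for 12 in ET3x2 against ET3x1 (13.1% of all probe sets), 9 in ET3x2 against S (10.9%) and 6 in ET3x1 against S (11.8%). The called gene was Med1, a Mediator subunit through which nuclear receptors such as Vdr reach RNA polymerase. Its probe set 1376906_at read 9.32, 9.03, 9.15 and 9.46 in the ET3x2 pools, against 9.68, 9.77, 9.83 and 9.80 in the ET3x1 pools and 9.44, 9.26, 9.46 and 9.06 in the S pools. All ET3x1 pools stood above all others, and ET3x2 and S overlapped. Over all tested probe sets, ET3x1 lay wholly above S in 4.41% and ET3x2 wholly below ET3x1 in 4.18%. This probe set fell by 0.53 in ET3x2 against ET3x1 (SE 0.10, adjusted p = 0.0278), and differed by 0.46 in ET3x1 against S (SE 0.10, adjusted p = 0.102) and by −0.07 in ET3x2 against S (adjusted p = 0.848). The other Med1 probe sets, 1390506_at and 1384962_at, differed by −0.24 (adjusted p = 0.446) and −0.03 (adjusted p = 0.883) in ET3x2 against ET3x1, so that the call is that of 1 of 3. It ended without pool E (0.0664), G (0.104), H (0.0567), I (0.0588), J (0.0678) or K (0.123), and at 0.0629 when A, B and J were left out together.

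By group, calcium transport and buffering had 13 of 16 genes tested, with 0 called and median differences of 0.06 in ET3x2 against S, 0.06 in ET3x1 against S and 0.05 in ET3x2 against ET3x1. Among them the parathyroid hormone receptor Pth1r averaged 11.62 in ET3x2, 11.40 in ET3x1 and 11.53 in S. The small calcium buffer S100g averaged 7.47 in ET3x2, 7.43 in ET3x1 and 7.12 in S, and the pump Atp2b4 averaged 6.95 in ET3x2, 6.88 in ET3x1 and 6.88 in S, both under the filter. Calcium-sensing signalling had 8 of 10 tested and 0 called, and the paracellular calcium and magnesium path 15 of 16 tested and 0 called, where Cldn16, the thick limb pore for both ions, averaged 9.30 in ET3x2, 9.43 in ET3x1 and 9.32 in S. Vitamin D uptake, activation and receptor partners had 13 of 18 tested, with Med1 the 1 called. In it Rxra, the partner of Vdr on DNA, averaged 7.88 in ET3x2, 7.75 in ET3x1 and 7.92 in S (adjusted p from 0.358 to 0.875). FGF23 and phosphate genes had 13 of 18 tested and 0 called, with the klotho partner Fgfr1 at 10.29 in ET3x2, 10.57 in ET3x1 and 10.36 in S. The main proximal phosphate transporter Slc34a1 averaged 13.94 in ET3x2, 13.78 in ET3x1 and 13.88 in S.

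The probe sets whose pattern over the 12 pools was most like that of Atp2b1 1370050_at, among 9317 others with a symbol on RAE230A, were those of Tor1aip1, Nfib, Mpv17l, Sf3b1 and Phf20, with Pearson's r from 0.945 to 0.955. Sf3b1, a spliceosome subunit, was itself called in ET3x2 against ET3x1 (adjusted p = 0.00798), and the other 4 were not (adjusted p from 0.0528 to 0.1). The most opposite were Mus81, Islr and Cdc20 (r from −0.914 to −0.908). For Calb1 the nearest were Ehd4, Rpp25, Nr1h4, Gstm1 and the kallikrein gene Klk1b3 (r from 0.890 to 0.919), and the most opposite Serpine2, Erlin1 and Col5a2 (r from −0.858 to −0.847, Spearman's rho from −0.65 to −0.573). For the dim Kl probe set they were Cox4i2, Sprr1a, Slc2a4, Top2a and Leng8 (r from 0.844 to 0.887) and Prnp, Fzd4 and C4h2orf68 (r from −0.929 to −0.906). These are the extremes of all those comparisons over the same 12 pools, which share strain and RNA completeness, and are given as descriptions. They were also read without the 2 pools farthest from the median of Atp2b1, Calb1 or Kl. The nearest then had r from 0.892 to 0.942 for Atp2b1, 0.79 to 0.877 for Calb1 and 0.639 to 0.721 for Kl. The most opposite had r from −0.878 to −0.83 for Atp2b1, −0.748 to −0.595 for Calb1 and −0.832 to −0.659 for Kl.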

How the data were processed

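Per the labels, RNA of each of 12 pools, 4 per strain, was primed with oligo(dT), labelled with biotin and hybridised to RAE230A and RAE230B, 24 arrays in all. Each deposited table gives every pool 1 value for a probe set. These deposited numbers were read as log2 signal because RAE230A spans 4.97 to 15.24 and RAE230B 4.10 to 14.28, with column medians of 8.49 to 8.60 and 7.55 to 7.62, and they were not rescaled. Summarisation, background correction and normalisation are not given in the sources used here, so that the size of differences near the background is uncertain. Arrays give no depth, and their number limits the precision.

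Symbols were updated through gene identifiers to RefSeq's GRCr8 annotation (12783 of 15866 and 7564 of 15276 probe sets had 1 symbol). Control probe sets (57 per array) and those under the 30th percentile of mean signal were left out, which left 21799. Each array was fitted with limma 3.58.1 in R 4.3.3 (lmFit, eBayes with trend) over all 12 pools, without covariates, since the labels give no batch. P-values are two-sided, with Benjamini-Hochberg adjustment over each array's tested probe sets in a comparison and a threshold of 0.05. Pools hold different rats, and p-values rest on the variation among pools. The fit was checked on simulated arrays.

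The 10 members and the lists were chosen with earlier results of these data known. All probe sets of the members are named. Other genes are named when called, as fixed reference levels (Cyp2r1, also on that list, had no probe set), or as the 5 most and 3 least correlated probe sets of called members, Calb1 and Kl. Slc12a1 fell outside this rule and was named, with its values known, as the lowest marker in ET3x2 against ET3x1. Umod, Wnk4, Nphs1 and the muscle and adrenal markers were named to describe the tissue. In lists a gene is its brightest probe set, from RAE230A where on both. Promoters were read from RefSeq sequences of GRCr8, and Calb1 and Cyp24a1 had no entry. Proteins were not used here. Alternatives were other filters, scalings, priors, weights and pools left out. Figures were drawn with matplotlib 3.10.9.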

Additional observations from a re-analysis of the deposited data

Results flagged for a closer look

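The difference from S of Atp2b1 probe set 1370050_at was not the same in both congenic strains: ET3x2 against S minus ET3x1 against S was −0.54 (limma adjusted p = 0.0497), which is the ET3x2 against ET3x1 comparison itself, and all 4 ET3x2 pools lay below all 4 ET3x1 pools. In 42 sets of 4 pools (14 probe sets in 3 strains), 2 held a pool far from the other 3, where chance gives about 1 in 20. They were ET3x2 pool J in Atp2b1 1397224_at, at 7.76 against 7.98 to 8.01, and S pool B in the dim Pvalb probe set, at 6.75 against 6.53 to 6.57.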

How the results depend on the processing

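Of 627 values of the 10 tested member probe sets under the alternatives, 596 kept their direction and their side of the threshold. Apart from Atp2b1 1370050_at and 1386426_at in ET3x2 against ET3x1, the reported limma fit gave adjusted p of 0.198 or more. Keeping their side of the threshold therefore says little for those results. Atp2b1 1370050_at in ET3x2 against ET3x1 was past the threshold in 11 of 21 alternatives, with adjusted p from 0.00846 to 0.205 and 0.0561 without the filter, and 1386426_at, not called, passed in 7. Differences near 0 changed sign: Calb1 in ET3x2 against ET3x1 was 0.02 with array weights, 0.05 with the actin covariate and 0.01 without pools A, B and J (single pools left out: −0.06 to 0.04), Slc8a1 1370588_a_at in ET3x1 against S was 0.01 with the covariate and 0.05 without A, B and J (−0.05 to 0.00), Casr in ET3x2 against S was −0.04 without A, B and J (−0.01 to 0.14), Trpv5 1398279_at in ET3x2 against ET3x1 lay between −0.15 and 0.00 with single pools left out, and Med1 in ET3x2 against S was 0.05 without A, B and J (−0.15 to 0.00). The cause was not tested.

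Counts over all probe sets moved more. In ET3x1 against S, 96 were called, 164 with array weights, 215 with the actin covariate, 51 with only the 8 pools compared, and 41 (E) to 118 (J) with 1 pool left out. In ET3x2 against S, 75 were called, with 419, 432 and 42 in the same alternatives, 17 without A, B and J, and 19 (A, I or K) to 167 (D) with 1 pool left out. In ET3x2 against ET3x1, 323 were called, with 1658 under array weights, 502 with the covariate and 133 (K) to 488 (F) with 1 pool left out. The test of all 3 strains called 304, with 1471, 709 and 132 (K) to 444 (D). As pool letters differ between strains, no paired analysis was possible because no pools share a number. Signals near the filter limit what Vdr, Kl, Pvalb and Trpv5 1370644_at can show.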
